A study of Mus musculus with 6 samples.

Results

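The homeobox, forkhead (Fox), Sox, Krüppel-like (Klf), T-box (Tbx), Gata, grainyhead-like (Grhl) and Runx transcription factors measured in newborn mouse epidermis numbered 73 of the 12894 genes of the table. They were chosen by symbol alone, as every symbol made of Hoxa to Hoxd, Foxa to Foxs, Sox, Tbx, Dlx, Msx, Irx, Lhx, Klf, Gata, Grhl or Runx followed only by digits, with Sox10 left out. The choice gave 17 Hox genes (5 Hoxa, 6 Hoxb, 4 Hoxc and 2 Hoxd), 17 Fox, 14 Klf, 8 Sox, 5 Irx, 3 Dlx, 3 Grhl and 3 Runx genes, and 1 each of Lhx, Gata and Tbx. A further 4 symbols carry letters after the digits and were not counted, namely Dlx6os1, Hoxb3os, Hoxd3os1 and Irx3os.

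Epidermis of 3 C57BL/6 mice labelled Hnrnpu knockout, made by loxP-Cre recombination, was compared with epidermis of 3 control mice of the same strain, all at postnatal day 0. Control 1 is labelled wild type, and controls 2 and 3 carry the genotype word "Heterogenous", read here as heterozygous for an allele that the labels do not name. The promoter that drives Cre is not given in the sources used here, nor is a litter for any animal. Bulk RNA sequencing measured the whole sheet after its separation from the dermis, and values are normalized read counts per gene, not corrected for gene length, so levels are compared between libraries and not between genes.

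Factors of these families bind DNA through a conserved domain and set which genes a cell type or body region uses. Hox genes lie in clusters and mark position along the body axis, a pattern that skin keeps after birth. In the epidermis, Klf4, Grhl3 and Gata3 are known for building the barrier, Dlx3 for late differentiation and hair, and Sox9 and Lhx2 for hair follicle progenitors.

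The estimated depth was 6460000 to 8770000 assigned reads in the libraries labelled knockout and 8280000 to 9120000 in controls. Hnrnpu (ENSMUSG00000039630) had 1565, 1342 and 1036 normalized counts in knockout 1 to 3, against 1450, 1318 and 1160 in controls 1 to 3, a log2 change of −0.01 ± 0.20 (adjusted p = 0.976), so its count does not check the genotype labels, and every direction given here rests on them. Sex-linked transcripts split the libraries labelled knockout: Xist had 1.87, 5656 and 4758 normalized counts in knockout 1 to 3, against 0, 0.885 and 3.27 in controls 1 to 3. Ddx3y, on the Y chromosome, had 323, 0 and 0 in knockout 1 to 3, against 574, 646 and 544 in controls 1 to 3. Knockouts 2 and 3 differ from every control in these transcripts, so sex and genotype cannot be told apart in them. Knockout 1 is the one library labelled knockout that is like the controls in this respect, and its comparison alone with the controls is given where it ends a call or moves a called value by over 1.5-fold. Of 7 suprabasal keratinocyte markers, all measured, 1 was higher and 0 lower, with sums of 555500 to 843500 normalized counts in the libraries labelled knockout, against 767300 to 853500 in controls. Of 6 basal markers, Krt14 was higher (3.21 ± 0.61) and Krt15 lower (−6.84 ± 0.76), with sums of 30010 to 123500 normalized counts in the libraries labelled knockout, against 14740 to 42310 in controls. Krt14 made most of the sum in the libraries labelled knockout. It had 59690, 115300 and 21770 normalized counts in knockout 1 to 3, against 10310, 5712 and 3208 in controls 1 to 3. Krt5, Itga6 and Col17a1 had log2 changes of −0.64 ± 0.44, −1.03 ± 0.62 and −0.90 ± 0.60 and did not pass. Nor did Itgb4 (0.98 ± 0.60). Of 4 measured sebaceous gland markers, 1 was higher and 3 lower, with sums of 486 to 2808 normalized counts in the libraries labelled knockout, against 179 to 268 in controls. The sum in the libraries labelled knockout was mostly Plin2, with 963.5, 2768 and 460.2 normalized counts in knockout 1 to 3. In controls 1 to 3 Plin2 had 54.4, 54.0 and 42.5. The 3 that fell were Awat1 (−4.85 ± 0.65), Far2 (−1.70 ± 0.34) and Scd3 (−3.45 ± 0.85). The part of these shifts in the factors' values was not tested. Skeletal muscle markers were not among the genes of the table, and 2 of 12 endothelial markers were.

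All 73 factors passed the filter on low values (above 1 normalized count in at least 3 libraries). Of them, 26 passed the threshold, an adjusted p of 0.05 (limma, with Benjamini-Hochberg adjustment over 12872 genes), or 35.6%, against 33.6% of all tested genes, so the families together were called about as often as the table. By direction, 7 factors rose and 19 fell, or 9.59% and 26.0%, against 17.7% and 15.9% of all tested genes. Their median log2 change was −0.32, against −0.02 over all tested genes. The groups did not overlap for 32 factors (10 higher, 22 lower), against 50.8% of all tested genes (25.8% higher, 25.0% lower). Fold changes are on the log2(normalized count + 1) scale, which understates the change of low genes.

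All 26 kept their sign in the 16 alternative settings that were run. The count of calls leaned on the controls, with 13, 13 and 14 factors past the threshold without control 1, 2 and 3. Calls among all tested genes also dropped in these fits, from 4328 to 2700, 2674 and 2644. The balance of directions leaned on the scaling. With library totals set equal, which moved the median of all genes to −0.36, 4 factors were higher and 23 lower. Calls among all tested genes moved the same way, from 2279 higher and 2049 lower to 1440 and 3065. With quantile normalization 8 factors were higher and 23 lower, and 2212 and 2218 of all tested genes. Pairing the libraries by adjacent animal number gave 12 factors higher and 24 lower, and 2952 and 2829 of all tested genes. With knockout 1 alone against the controls Dlx4, Foxi3, Foxp4, Hoxa2, Hoxa5, Hoxb8, Klf8, Klf12, Sox6, Sox13 and Sox21 lost the call.

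**Figure D1:**
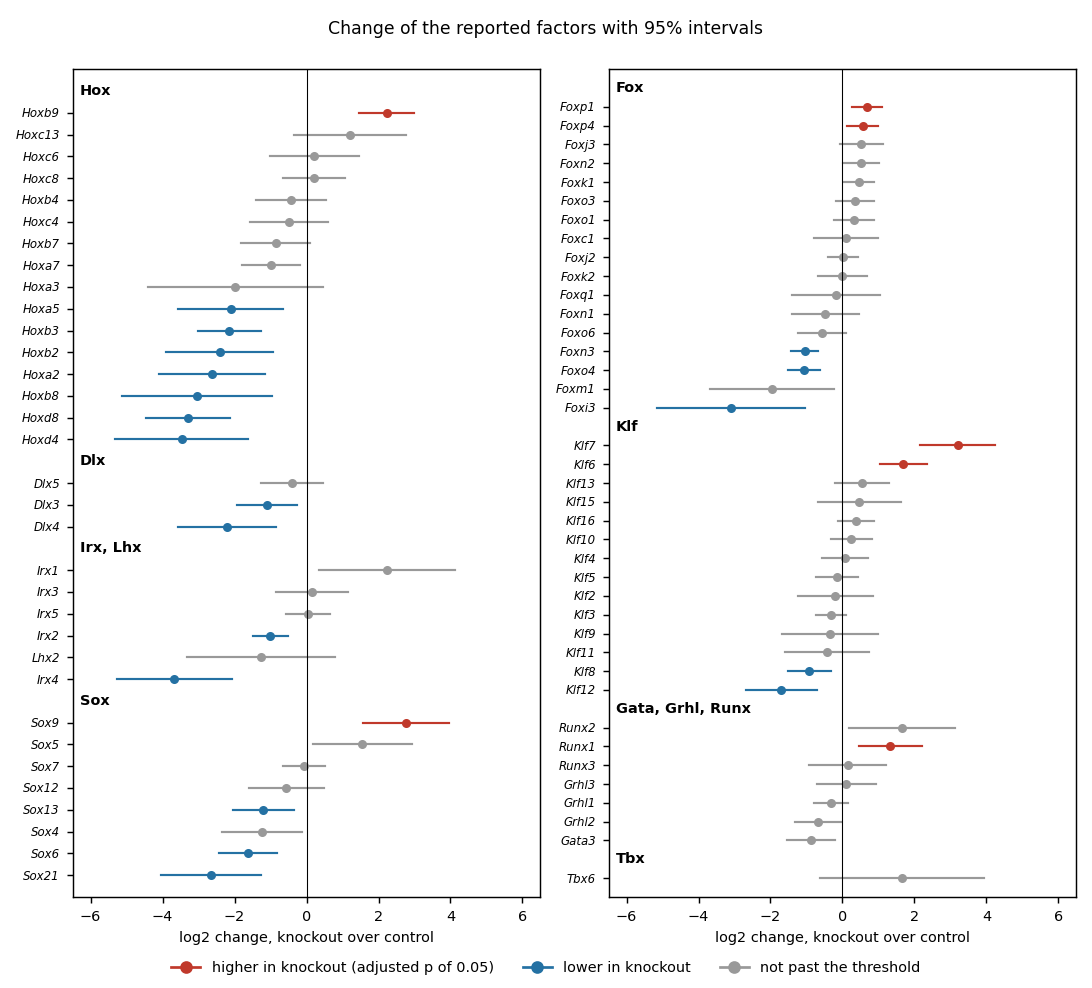
Log2 change (libraries labelled knockout over controls, log2(value + 1) scale) of each reported factor, by family, with its 95% interval from limma. Of the 26 past the threshold, 7 lie above 0 and 19 below, between 3.20 for Klf7 and −3.68 for Irx4.

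Of the 26, 12 stayed past the threshold in each of the 6 fits that left out 1 library. These were Klf7, Klf6, Sox9 and Hoxb9 among the rises, and Irx4, Hoxd8, Sox21, Hoxb3, Sox6, Foxo4, Foxn3 and Irx2 among the falls. The other 14 lost the call in at least 1 of these fits, and the libraries concerned are named with each gene.

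**Figure D2:**
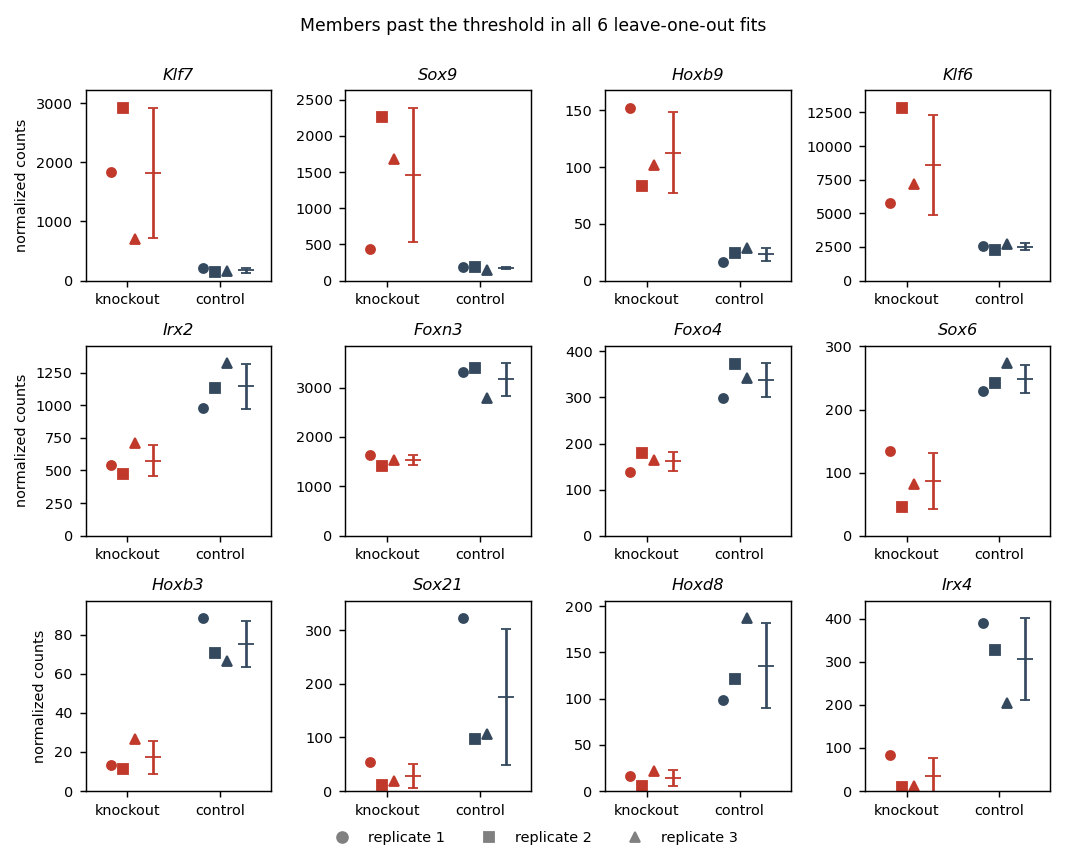
Normalized counts (linear vertical axes) of 12 factors in each of the 6 libraries, with the libraries labelled knockout left of the controls and the mean and SD of each group (n = 3). The groups do not overlap in any panel, and Klf7 reaches 2918 in knockout 2, against at most 209 in a control.

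To show what lies before the starts of factors with stable calls, the 250 bases upstream were read from RefSeq (GRCm38.p6), which held windows for 48 of the 73 factors (60 windows). Klf7, Klf6, Irx4, Irx2 and Hoxd8 are printed because they set 2 rises against 3 falls, with Irx4 and Irx2 from a single cluster. Foxn3 and Sox21, which also fell with stable calls and had a single window each, are not printed. Capitals mark the GC box, GGGCGG, or CCGCCC where the other strand holds it, letters that Sp and many Klf proteins are known to bind. The windows are chr1:64121390-64121639 on the minus strand for Klf7, chr13:5861239-5861488 for Klf6, chr13:73260247-73260496 for Irx4, chr13:72628570-72628819 for Irx2 and chr2:74704365-74704614 for Hoxd8, these last 4 on the plus strand.
Klf7: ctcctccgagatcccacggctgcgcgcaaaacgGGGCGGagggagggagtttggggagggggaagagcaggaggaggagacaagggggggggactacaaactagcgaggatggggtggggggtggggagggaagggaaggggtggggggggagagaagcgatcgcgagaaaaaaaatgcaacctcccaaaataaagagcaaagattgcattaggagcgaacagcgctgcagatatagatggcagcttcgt
Klf6: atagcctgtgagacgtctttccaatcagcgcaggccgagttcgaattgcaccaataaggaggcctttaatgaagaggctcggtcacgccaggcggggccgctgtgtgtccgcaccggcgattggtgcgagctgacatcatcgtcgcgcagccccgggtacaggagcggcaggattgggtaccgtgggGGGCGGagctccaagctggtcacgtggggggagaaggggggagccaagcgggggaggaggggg
Irx4: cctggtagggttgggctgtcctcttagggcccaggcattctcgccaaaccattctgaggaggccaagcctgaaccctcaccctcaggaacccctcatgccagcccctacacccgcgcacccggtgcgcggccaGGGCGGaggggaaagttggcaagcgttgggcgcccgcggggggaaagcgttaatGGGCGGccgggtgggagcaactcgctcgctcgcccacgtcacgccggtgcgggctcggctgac
Irx2: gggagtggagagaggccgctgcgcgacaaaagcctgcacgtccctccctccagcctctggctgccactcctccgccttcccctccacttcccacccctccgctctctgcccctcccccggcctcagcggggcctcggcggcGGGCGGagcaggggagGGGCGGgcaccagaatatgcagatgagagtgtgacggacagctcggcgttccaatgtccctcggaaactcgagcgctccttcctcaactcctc
Hoxd8: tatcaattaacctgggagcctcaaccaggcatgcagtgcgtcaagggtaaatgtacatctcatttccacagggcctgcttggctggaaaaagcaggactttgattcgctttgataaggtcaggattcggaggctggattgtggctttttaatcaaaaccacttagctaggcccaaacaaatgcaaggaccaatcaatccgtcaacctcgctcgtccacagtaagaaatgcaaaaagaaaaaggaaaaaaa

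The GC box stood 1 time before Klf7 and 1 time before Klf6, which rose, and 2 times before Irx4 and 2 times before Irx2, which fell. Hoxd8 held 0 GC boxes and 6 CpG dinucleotides, against 13 for Klf7 and 21 for Klf6. The windows of Irx4 and Irx2, which also fell, held 22 and 19. Those of Foxn3 and Sox21, which fell and are not printed, held 0 GC boxes each, and 5 and 17 CpG dinucleotides. Over all windows of members, a GC box was in 62.5% of 8 windows of factors called higher and 35.0% of 20 windows of those called lower, against 57.8% of the windows of all tested genes and 32.7% of all windows of the table. The 32 windows of factors not called held a GC box in 62.5%, the same share as those called higher. The median number of CpG dinucleotides was 17 in windows of factors called higher and 7 in those called lower. It was 21.5 in those not called and 16 for all tested genes. Of the 20 windows 6 belong to Sox6, and of the 8 windows 3 to Foxp1: without Sox6 the windows of factors called lower had a median of 10 and a GC box in 42.9%, and without Foxp1 those of factors called higher had 21 and 60.0%. The TATA box TATAAA, searched on both strands, was in 0 of the 8 windows and 4 of the 20. It was in 3.12% of the windows of factors not called and 6.77% for all tested genes. Windows of 1 gene are not independent, and a match describes letters, not binding.

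Among Krüppel-like factors, zinc-finger proteins of GC-rich and CACCC sequences, Klf7 and Klf6 rose, Klf12 and Klf8 fell, and 10 of 14 did not pass (28.6% called, against 33.6% of all tested genes). Klf7 (ENSMUSG00000025959, chromosome 1), known from neuronal development, had 1839, 2918 and 704 normalized counts in knockout 1 to 3, against 209, 139 and 165 in controls 1 to 3. The lowest library labelled knockout lay far above the highest control. Its log2 change was 3.20 ± 0.46 (SE, n = 3 and 3), or 9.18-fold (adjusted p = 0.00167). Klf6 (ENSMUSG00000000078, chromosome 13), an early-response gene of injured tissue, had 5797, 12855 and 7146 normalized counts in knockout 1 to 3, against 2563, 2250 and 2743 in controls 1 to 3. Knockout 2 was the highest and the controls lay close together. This was a log2 change of 1.69 ± 0.29 (adjusted p = 0.00342), and 1.09 with quantile normalization.

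Some other early-response genes were higher in the same libraries. Of 21 measured genes on a list of immediate early genes, which also respond to the handling of tissue, 10 were higher and 0 lower. Of all tested genes 17.7% were higher and 15.9% lower. The other 11 genes of the list did not pass, among them Fos (0.27 ± 0.33) and Egr1 (0.59 ± 0.50). Summed levels of the list were 53270 to 96230 normalized counts in the libraries labelled knockout, against 41540 to 50580 in controls. The part of this response in the rise of Klf6 was not tested. Klf10 and Klf2, also known as early-response genes, did not pass, with log2 changes of 0.25 ± 0.25 and −0.20 ± 0.46.

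Klf12, a repressor, had 82.2, 76.6 and 185 normalized counts in knockout 1 to 3, against 345, 208 and 567 in controls 1 to 3. No value overlapped between the groups, though knockout 3 came near control 2. On the log2 scale the change was −1.70 ± 0.43 (adjusted p = 0.0187) and −2.05 with knockout 1 alone (adjusted p = 0.0575), and the call was also lost without knockout 1 or 2 and without control 1 or 3 (−1.34 to −1.70, adjusted p = 0.0551 to 0.0651). Klf8, an X-linked relative, had 45.8, 68.1 and 53.2 normalized counts in knockout 1 to 3, against 104, 90.3 and 122 in controls 1 to 3. Knockout 1 was the lowest library and no control fell into the range of the libraries labelled knockout. The log2 change was −0.92 ± 0.26 (adjusted p = 0.0262) and −1.18 with knockout 1 alone (adjusted p = 0.0562), and the call was also lost without knockout 1 and without any single control (−0.79 to −1.02, adjusted p = 0.0557 to 0.104).

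Klf4, the barrier factor, had 11772, 20921 and 11157 normalized counts in knockout 1 to 3, against 10594, 14804 and 15186 in controls 1 to 3. The groups overlapped and the log2 change was 0.07 ± 0.28 (adjusted p = 0.865), with a 95% interval of −0.57 to 0.71. The direction followed the scaling, at −0.27 with equal library totals and −0.90 with quantile normalization, where it passed (adjusted p = 0.00752). Klf5, a factor of proliferating epithelial cells, and Klf3, a repressor, had log2 changes of −0.16 ± 0.26 and −0.32 ± 0.19 and did not pass, except as lower with quantile normalization and, for Klf3, with equal library totals. Klf13 passed without knockout 3 and in no other setting. The members Klf9, Klf11, Klf13, Klf15 and Klf16 had log2 changes from −0.43 to 0.56.

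Sox proteins, high-mobility-group factors of progenitor cells, gave 1 rise and 3 falls among 8 members (4 of 8 called, against 33.6% of all tested genes). Sox9 (ENSMUSG00000000567, chromosome 11), a factor of hair follicle stem cells, had 441, 2261 and 1678 normalized counts in knockout 1 to 3, against 186, 186 and 152 in controls 1 to 3. The controls lay close together, and knockout 1 was the lowest of a wide range above them. Its log2 change was 2.77 ± 0.52, or 6.8-fold (adjusted p = 0.00552), 3.48 without knockout 1 and 1.34 with knockout 1 alone (adjusted p = 0.0217).

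Sox21 (ENSMUSG00000061517, chromosome 14), needed for hair shaft differentiation, had 53.2, 11.9 and 18.9 normalized counts in knockout 1 to 3, against 323, 97.6 and 106 in controls 1 to 3. The wild type control stood above the other controls, which in turn lay above every library labelled knockout. This was a log2 change of −2.65 ± 0.61 (adjusted p = 0.0125), −3.24 without knockout 1 and −1.48 with knockout 1 alone, which did not pass (adjusted p = 0.205). Sox4, a progenitor factor, had 480.3, 151 and 268 normalized counts in knockout 1 to 3, against 1230, 446 and 477 in controls 1 to 3. Knockout 1 lay above controls 2 and 3, and the change of −1.25 ± 0.49 (adjusted p = 0.0791) missed the threshold and passed with the animals paired (adjusted p = 0.00193) and without knockout 1.

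Of the SoxD genes, Sox6 and Sox13 fell and Sox5 did not pass. Sox6 (ENSMUSG00000051910, chromosome 7), which acts in cartilage and red blood cells, had 134, 45.9 and 82.1 normalized counts in knockout 1 to 3, against 229.5, 241.7 and 274 in controls 1 to 3. The groups were well apart. On the log2 scale the change was −1.62 ± 0.36 (adjusted p = 0.0103), and −0.89 with knockout 1 alone (adjusted p = 0.0516). Sox13 had 15.9, 11.9 and 21.1 normalized counts in knockout 1 to 3, against 37.0, 35.4 and 41.7 in controls 1 to 3. The groups did not overlap. The log2 change was −1.21 ± 0.37 (adjusted p = 0.0363) and −1.21 with knockout 1 alone (adjusted p = 0.082), and the call was also lost with quantile normalization (−0.98, adjusted p = 0.0581) and without knockout 1 or 2 and without any single control (−1.01 to −1.25, adjusted p = 0.0623 to 0.123).

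Sox5, a SoxD gene active in pigment cells as well as cartilage, had 66.8, 34.0 and 27.7 normalized counts in knockout 1 to 3, against 23.4, 17.7 and 5.04 in controls 1 to 3. No value overlapped between the groups, and the log2 change of 1.54 ± 0.60 (adjusted p = 0.0791) missed the threshold and passed with the animals paired (adjusted p = 0.0196) and with quantile normalization. Melanocyte markers were higher in the same libraries: all 12 measured of 13 passed as higher, with sums of 3312 to 5182 normalized counts in the libraries labelled knockout, against 540.3 to 778 in controls. Their part in the value of Sox5 was not tested, and in bulk RNA more or fewer cells of a type cannot be told apart from more or less RNA per cell. Sox7, a factor of vessels, had 632, 864 and 726 normalized counts in knockout 1 to 3, against 533, 1007 and 866 in controls 1 to 3. The groups overlapped, and neither Sox7 nor Sox12 passed, with log2 changes of −0.08 ± 0.26 and −0.56 ± 0.46.

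Of the 17 Hox genes, 7 passed as lower (41.2%, against 15.9% of all tested genes) and 1, Hoxb9, as higher (5.88%, against 17.7%), with a median log2 change of −0.98. By cluster, 2 of 5 Hoxa genes, 3 of 6 Hoxb genes and 2 of 2 Hoxd genes fell, and 0 of 4 Hoxc genes passed in either direction. Many were read rarely: Hoxa2, Hoxa3, Hoxa5, Hoxb2, Hoxb8, Hoxd4 and Hoxd8 were at or under 3 estimated reads in knockout 2, which there equal 5.10 normalized counts, and 3 of them (Hoxa3, Hoxb8 and Hoxd4) were listed at 0.

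**Figure D3:**
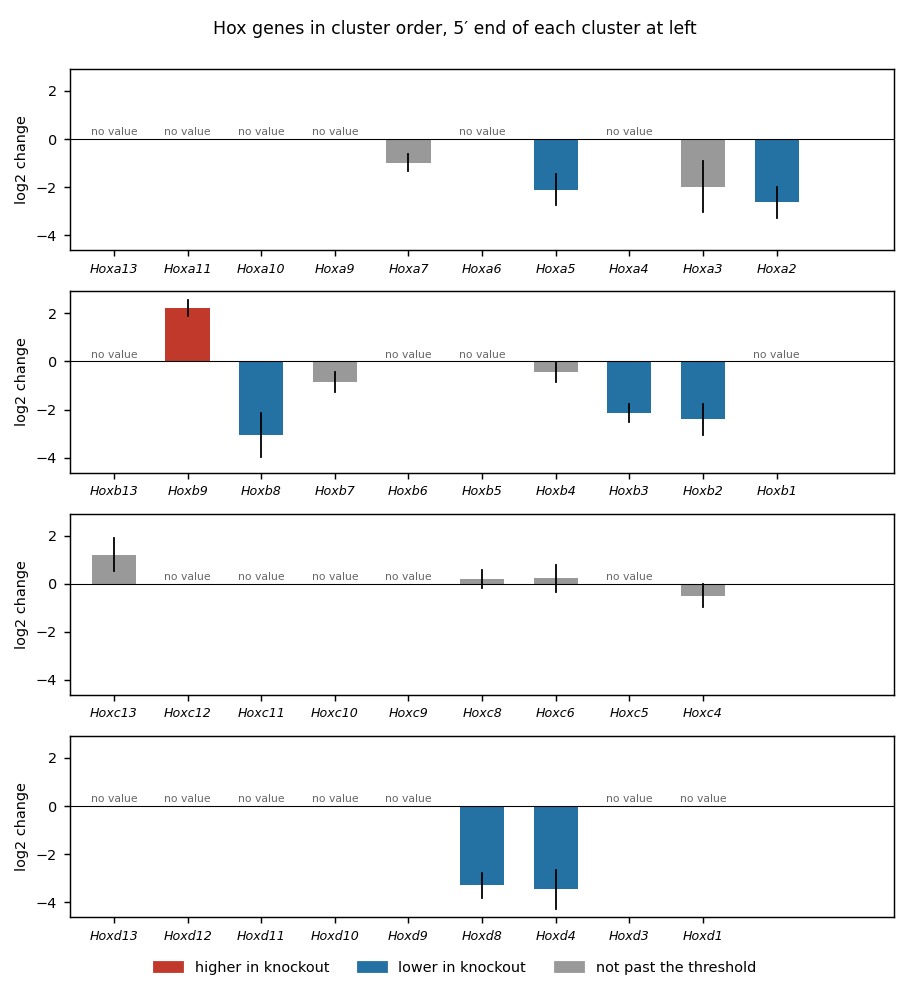
Log2 change (libraries labelled knockout over controls) of each reported Hox gene in the order in which the genes lie in the Hoxa, Hoxb, Hoxc and Hoxd clusters, with error bars for the SE (n = 3 and 3). Hoxb9, at 2.23, stands next to Hoxb8, at −3.05, and genes without a value were not analysed here.

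Hoxb9 (ENSMUSG00000020875, chromosome 11), a posterior gene of its cluster, had 152, 83.4 and 102 normalized counts in knockout 1 to 3, against 16.6, 23.9 and 28.6 in controls 1 to 3. Every library labelled knockout lay well above the highest control. Its log2 change was 2.23 ± 0.34, or 4.68-fold (adjusted p = 0.0022). Hoxb8, the next gene of the cluster, had 11.2, 0 and 5.54 normalized counts in knockout 1 to 3, against 49.8, 23.9 and 35.1 in controls 1 to 3. All controls were above all libraries labelled knockout. The change was −3.05 ± 0.91 (adjusted p = 0.0331), −2.0 without knockout 2, −3.81 without knockout 1 and −1.55 with knockout 1 alone (adjusted p = 0.0993), and the call was also lost without any single control (−2.80 to −3.31, adjusted p = 0.0722 to 0.111).

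At the other end of the cluster, Hoxb3 (ENSMUSG00000048763), a factor of hindbrain patterning, had 13.6, 11.5 and 26.9 normalized counts in knockout 1 to 3, against 88.6, 70.9 and 66.5 in controls 1 to 3. The groups were well apart, with a log2 change of −2.14 ± 0.38 (adjusted p = 0.0045). Hoxb2, also a hindbrain factor, had 15.9, 3.40 and 29.9 normalized counts in knockout 1 to 3, against 67.4, 63.0 and 78.2 in controls 1 to 3. Knockout 2 was the lowest and no control overlapped. The change was −2.41 ± 0.65 (adjusted p = 0.0229), −1.62 without knockout 2 and −3.03 without knockout 3, and the call was lost without any single control (−2.32 to −2.48, adjusted p = 0.0638 to 0.0744). Hoxb4 and Hoxb7, between these genes and Hoxb8, had log2 changes of −0.44 ± 0.43 and −0.85 ± 0.42 and did not pass.

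Hoxd8 (ENSMUSG00000027102, chromosome 2), whose upstream bases are printed above, had 15.9, 5.10 and 22.2 normalized counts in knockout 1 to 3, against 98.2, 121 and 187 in controls 1 to 3. The highest library labelled knockout was far below the lowest control. This was a log2 change of −3.30 ± 0.51 (adjusted p = 0.00241). Hoxd4, its neighbour among measured genes, had 1.87, 0 and 5.54 normalized counts in knockout 1 to 3, against 27.4, 33.2 and 25.2 in controls 1 to 3. No control was near the libraries labelled knockout. The change was −3.47 ± 0.81 (adjusted p = 0.013), −2.23 with a pseudocount of 5, −2.76 without knockout 2 and −4.12 without knockout 3, and the call was lost without control 2 (−3.36, adjusted p = 0.0659).

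Hoxa2, which patterns the second pharyngeal arch, had 9.35, 1.70 and 3.33 normalized counts in knockout 1 to 3, against 37.0, 32.5 and 21.3 in controls 1 to 3. The groups did not overlap. On the log2 scale the change was −2.62 ± 0.65 (adjusted p = 0.0164), −1.90 with a pseudocount of 5 and −1.56 with knockout 1 alone (adjusted p = 0.0832), and the call was also lost without control 1 or 2 (−2.47 to −2.56, adjusted p = 0.07 to 0.072). Hoxa5 had 38.3, 5.10 and 26.6 normalized counts in knockout 1 to 3, against 92.9, 62.9 and 86.6 in controls 1 to 3. Knockout 2 was the lowest, and without it the change of −2.10 ± 0.64 (adjusted p = 0.035) became −1.29. It was −1.04 with knockout 1 alone (adjusted p = 0.105). The call was also lost without the mean-variance trend (adjusted p = 0.0565) and without any single control (−1.99 to −2.27, adjusted p = 0.0722 to 0.101).

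Hoxa7 had 114, 45.9 and 102 normalized counts in knockout 1 to 3, against 195, 134 and 161 in controls 1 to 3. No value overlapped between the groups, and the change of −0.98 ± 0.36 (adjusted p = 0.0621) missed the threshold and passed with the animals paired (adjusted p = 0.0131), with equal library totals and without knockout 1. Hoxa3 did not pass, with a log2 change of −1.98 ± 1.07. Hoxc4, Hoxc6 and Hoxc8 had log2 changes of −0.49 ± 0.47, 0.22 ± 0.55 and 0.21 ± 0.38. Hoxc13, a regulator of hair keratins, had 14.95, 11.9 and 43.2 normalized counts in knockout 1 to 3, against 11.3, 3.54 and 12.3 in controls 1 to 3, which overlapped, and its change of 1.21 ± 0.69 (adjusted p = 0.2) did not pass.

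Reads of some of these genes may come from partners on the other strand, since strand assignment is not stated. By the GRCm38 annotation, Hoxb3os overlaps Hoxb2 and Hoxb3, and Hoxd3os1 overlaps Hoxd4 and Hoxd8, all on the other strand. Hoxd3os1 had 4.67, 1.70 and 4.43 normalized counts in knockout 1 to 3, against 12.8, 22.5 and 29.4 in controls 1 to 3, and passed as lower (−2.30 ± 0.66, adjusted p = 0.0283). Hoxb3os had a log2 change of −1.32 ± 0.54 (adjusted p = 0.0923). Reads from a stretch that a gene shares with its partner may be counted for either. The same holds for Hoxa3 and Hoxa5, whose annotated spans overlap. These spans include introns, and how many reads are shared was not tested.

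Dermal fibroblasts also use Hox genes, so their markers are set beside them. Of 16 such markers 8 were measured, with 5 higher and 1 lower, and sums of 803 to 1378 normalized counts in the libraries labelled knockout, against 1496 to 3135 in controls. Most of the sum in controls was Postn, which fell, while Col1a1, Col1a2, Col3a1, Col6a1 and Col6a2 rose. Pdgfra, Pdgfrb, Twist2 and Prrx1 were not among the genes of the table. The part of these cells in the Hox values was not tested.

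Iroquois genes are homeobox factors that lie in clusters of their own. Irx4 (ENSMUSG00000021604, chromosome 13), best known from the heart ventricle, had 84.1, 10.2 and 12.2 normalized counts in knockout 1 to 3, against 389.6, 328 and 204 in controls 1 to 3. Knockout 1 stood above the other libraries labelled knockout and below every control. The log2 change was −3.68 ± 0.70, or 12.8-fold lower (adjusted p = 0.00571), −4.61 without knockout 1 and −1.80 with knockout 1 alone (adjusted p = 0.0369). Irx2 (ENSMUSG00000001504) of the same cluster had 538, 476 and 709 normalized counts in knockout 1 to 3, against 980.1, 1128 and 1323 in controls 1 to 3. The groups did not overlap, and the change was −1.002 ± 0.21 (adjusted p = 0.008).

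Irx1, the remaining gene of that cluster, had 285, 926 and 61.0 normalized counts in knockout 1 to 3, against 85.3, 39.8 and 43.3 in controls 1 to 3. Knockout 3 lay below control 1, and the log2 change of 2.24 ± 0.83 (adjusted p = 0.0674) missed the threshold and passed with the animals paired (adjusted p = 0.0263), with knockout 1 alone and without knockout 3. Of the chromosome 8 cluster, Irx3 had 532, 1086 and 1118 normalized counts in knockout 1 to 3, against 415, 875 and 1320.1 in controls 1 to 3. The groups overlapped throughout, and the sign of its change of 0.14 ± 0.44 (adjusted p = 0.818) turned in some alternatives. Irx5 had a log2 change of 0.04 ± 0.27. Lhx2, a LIM-homeobox factor of hair follicle stem cells, had 26.2, 1.70 and 9.98 normalized counts in knockout 1 to 3, against 46.1, 21.3 and 9.81 in controls 1 to 3, which overlapped (−1.27 ± 0.91, adjusted p = 0.299).

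Distal-less genes are homeobox factors of ectodermal appendages, and 2 of 3 were lower (15.9% of all tested genes were). Dlx3 had 376, 269 and 812 normalized counts in knockout 1 to 3, against 858, 857 and 1122 in controls 1 to 3. Knockout 3 came near controls 1 and 2 without reaching them. The log2 change of −1.11 ± 0.37 (adjusted p = 0.0472) was close to the threshold, and the call was lost without the mean-variance trend (adjusted p = 0.0847), with the robust fit (adjusted p = 0.0529) and without knockout 1 or 2 and without any single control (−0.76 to −1.17, adjusted p = 0.0933 to 0.137). Dlx4, like Dlx3 on chromosome 11, had 7.48, 5.10 and 2.22 normalized counts in knockout 1 to 3, against 27.9, 29.2 and 18.0 in controls 1 to 3. Knockouts 2 and 3 were at or under 3 estimated reads. The change was −2.21 ± 0.60 (adjusted p = 0.0227), −1.61 with a pseudocount of 5 and −1.59 with knockout 1 alone (adjusted p = 0.0811), and the call was also lost without any single control (−2.09 to −2.43, adjusted p = 0.0529 to 0.1).

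Dlx5, a factor of bone and limb, had 168, 128 and 310.5 normalized counts in knockout 1 to 3, against 196, 206 and 382 in controls 1 to 3, which overlapped (−0.40 ± 0.37, adjusted p = 0.427). Dlx6os1, the opposite-strand transcript that is no member, had 59.8, 40.8 and 45.5 normalized counts in knockout 1 to 3, against 4.53, 5.31 and 4.90 in controls 1 to 3. Its libraries labelled knockout were far above the controls, with a log2 change of 3.05 ± 0.43 (adjusted p = 0.00153).

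Forkhead genes include the insulin-regulated Foxo factors, and 5 of 17 passed (29.4%, near the 33.6% of all tested genes), 2 higher and 3 lower. Foxn3 (ENSMUSG00000033713, chromosome 12), a repressor linked to cell cycle checkpoints, had 1629.8, 1421 and 1540.2 normalized counts in knockout 1 to 3, against 3305, 3405 and 2782 in controls 1 to 3. Both groups were tight and apart. Its log2 change was −1.04 ± 0.16, or 2.06-fold lower (adjusted p = 0.00249). Predicted genes that overlap Foxn3 may share its reads. Foxo4 (ENSMUSG00000042903), an X-linked gene, had 139, 180.3 and 164 normalized counts in knockout 1 to 3, against 299, 373 and 342 in controls 1 to 3. Knockout 1, which is like the controls in Xist, was the lowest library, and the part of sex in the values of Foxo4 was not tested. The change was −1.07 ± 0.20 (adjusted p = 0.00488), while Foxo1, Foxo3 and Foxo6 had log2 changes of 0.32 ± 0.24, 0.36 ± 0.23 and −0.56 ± 0.29 and did not pass.

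Foxo3 had the highest mean of the Fox genes that did not pass, with 3911, 3479 and 4286 normalized counts in knockout 1 to 3, against 2166, 3746 and 3433 in controls 1 to 3. The groups overlapped, and with quantile normalization the change was −0.10. Foxi3, a factor of hair placodes and teeth, had 7.48, 0 and 3.33 normalized counts in knockout 1 to 3, against 46.8, 14.2 and 31.1 in controls 1 to 3. Knockouts 2 and 3 were at or under 3 estimated reads, and no control overlapped with the libraries labelled knockout. This was a log2 change of −3.10 ± 0.91 (adjusted p = 0.0304), −3.78 without knockout 1, −2.24 without knockout 2 and −2.04 with a pseudocount of 5. It was −1.75 with knockout 1 alone (adjusted p = 0.148), and the call was also lost without any single control (−2.73 to −3.56, adjusted p = 0.0516 to 0.117).

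Foxp1, which keeps hair follicle stem cells quiescent, had 1078, 1135 and 806 normalized counts in knockout 1 to 3, against 625, 632 and 599 in controls 1 to 3. The controls were tight and below every library labelled knockout. On the log2 scale the change was 0.69 ± 0.18 (adjusted p = 0.0225), and the call was lost with equal library totals (0.34, adjusted p = 0.162) and without knockout 1 or 2 and without any single control (0.59 to 0.70, adjusted p = 0.0519 to 0.0754). Foxp4, a relative, had 421, 402 and 345 normalized counts in knockout 1 to 3, against 245, 305 and 239.5 in controls 1 to 3. No value overlapped between the groups. The change was 0.57 ± 0.19 (adjusted p = 0.0473) and 0.69 with knockout 1 alone (adjusted p = 0.1), and the call was also lost with equal library totals (0.23, adjusted p = 0.416), with quantile normalization (adjusted p = 0.0604), without the trend (adjusted p = 0.073) and without knockout 1 or 2 and without any single control (0.51 to 0.68, adjusted p = 0.0653 to 0.148).

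Foxm1, the forkhead factor of dividing cells, had 85.0, 10.2 and 13.3 normalized counts in knockout 1 to 3, against 159, 95.6 and 50.7 in controls 1 to 3. Knockout 1 lay above control 3, and the log2 change of −1.95 ± 0.76 (adjusted p = 0.0769) missed the threshold and passed with the animals paired (adjusted p = 0.00877) and without knockout 1. Foxk1 and Foxj3 had log2 changes of 0.45 ± 0.18 and 0.53 ± 0.26, missed the threshold and passed with the animals paired (adjusted p = 0.0358 and 0.0235). Foxn2 passed without knockout 3 and in no other setting. Foxn1, the hair and thymus factor, did not pass (−0.47 ± 0.41). Foxc1, Foxj2, Foxk2, Foxn2 and Foxq1 had log2 changes from −0.18 to 0.51.

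Runx1 was the one call among 7 Gata, Grhl and Runx genes (14.3%, against 33.6% of all tested genes). Runx1, a factor of hair follicles and blood, had 682, 954 and 304 normalized counts in knockout 1 to 3, against 278, 205 and 216.6 in controls 1 to 3. Knockout 3 was just above control 1. The log2 change was 1.33 ± 0.38, or 2.52-fold (adjusted p = 0.0287), and the call was lost with equal library totals (0.99, adjusted p = 0.0584), without the trend (adjusted p = 0.0569) and without knockout 1 or 2 and without any single control (0.98 to 1.46, adjusted p = 0.0531 to 0.0893). Of 12 markers of neutrophils and mast cells, which also use Runx1, 6 were measured and 5 were higher, with sums of 482 to 9080 normalized counts in the libraries labelled knockout, against 71.9 to 133 in controls. Of the 5, Kit is also on the melanocyte list and had 471, 296 and 275 normalized counts in knockout 1 to 3, against 125, 76.2 and 66.2 in controls 1 to 3, most of the sum in controls. S100a8, which like S100a9 is also made by stressed keratinocytes, had 403, 4682 and 65.4 normalized counts in knockout 1 to 3, against 0, 0 and 0 in controls 1 to 3, and the sum does not stand for these cells alone. Mpo and Cpa3 were not among the genes of the table. The part of these cells in the value of Runx1 was not tested.

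Runx2, the bone factor, had 49.5, 74.6 and 17.0 normalized counts in knockout 1 to 3, against 19.4, 15.1 and 5.72 in controls 1 to 3. The groups overlapped, and the log2 change of 1.66 ± 0.64 (adjusted p = 0.0773) missed the threshold and passed with the animals paired (adjusted p = 0.013), with quantile normalization and without knockout 3. Runx3, a factor of lymphocytes and Langerhans cells, had a log2 change of 0.14 ± 0.47. Gata3 had 770.0, 573 and 1195 normalized counts in knockout 1 to 3, against 1496, 1141 and 1873 in controls 1 to 3. Knockout 3 lay above control 2, and the change of −0.87 ± 0.29 (adjusted p = 0.0508) missed the threshold and passed with the animals paired (adjusted p = 0.00325), with equal library totals, with quantile normalization and without knockout 3.

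Grainyhead-like factors close and seal the epidermis, and 0 of 3 passed. Grhl1 had 2046, 2637 and 3323 normalized counts in knockout 1 to 3, against 2991, 3269 and 3564 in controls 1 to 3. The groups overlapped, and the log2 change of −0.32 ± 0.21 (adjusted p = 0.258) missed the threshold and passed as lower with equal library totals and with quantile normalization. Grhl2, with a log2 change of −0.69 ± 0.28 (adjusted p = 0.0905), missed the threshold and passed with the animals paired (adjusted p = 0.0196) and without knockout 1. Grhl3 had 1219.5, 2441 and 801 normalized counts in knockout 1 to 3, against 1084, 1342 and 1332 in controls 1 to 3. The controls lay inside the range of the libraries labelled knockout (0.10 ± 0.36, adjusted p = 0.848). Tbx6, a mesoderm factor and the 1 T-box member, had 45.8, 17.0 and 5.54 normalized counts in knockout 1 to 3, against 14.3, 5.31 and 0.817 in controls 1 to 3, which overlapped (1.66 ± 1.0, adjusted p = 0.224).

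**Figure D4:**
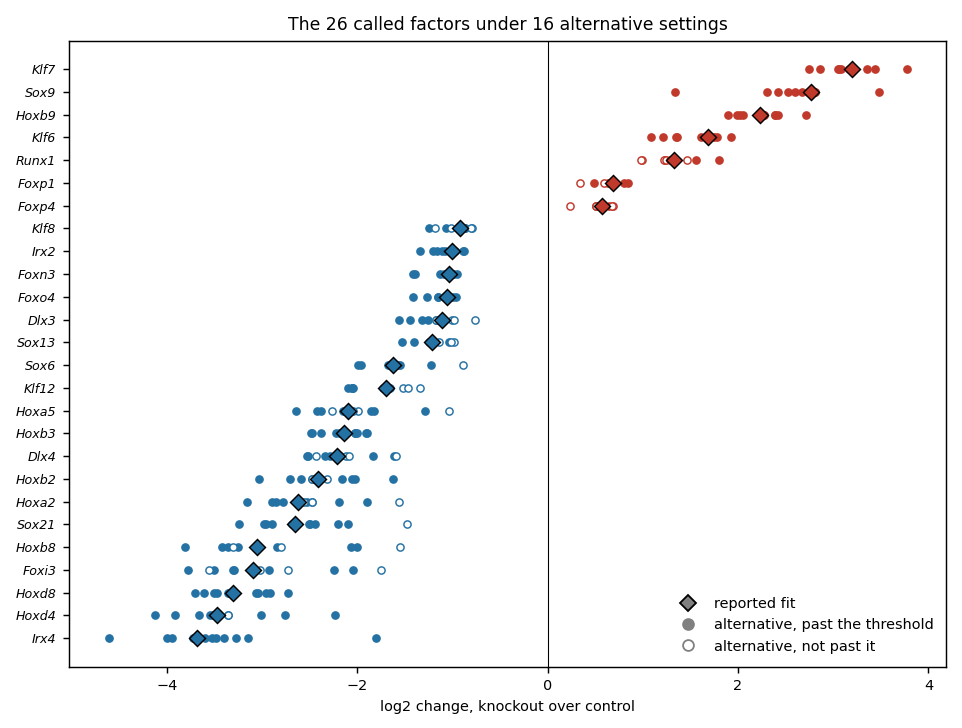
Log2 change (libraries labelled knockout over controls) of the 26 factors past the threshold, in the reported fit and in 16 alternative settings, with filled symbols where the adjusted p was under 0.05. All 26 stay on their side of 0, and Irx4 spans −4.61 without knockout 1 to −1.80 with knockout 1 alone.

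Several of these factors act in the hair follicle, whose markers moved in both directions. Of 10 measured genes of placode, germ and matrix, 2 were higher and 3 lower, with sums of 22000 to 70540 normalized counts in the libraries labelled knockout, against 3967 to 5085 in controls. Most of the sum in the libraries labelled knockout was Krt17, a keratin that wounded epidermis also makes. Krt17 and Krt75 rose (4.67 ± 0.42 and 5.31 ± 1.17). Krt75 had 65.4, 321.6 and 48.8 normalized counts in knockout 1 to 3, against 0, 15.9 and 0 in controls 1 to 3. Wnt10b, Sostdc1 and Krt79 fell (−2.63 ± 0.79, −3.63 ± 1.19 and −0.77 ± 0.25). Of 6 measured inner root sheath genes, 1 was higher and 1 lower, with sums of 129 to 834 normalized counts in the libraries labelled knockout, against 637 to 1367 in controls. Of 15 hair shaft genes 1 was measured and did not pass. The part of follicle content in Sox9, Sox21, Foxi3, Dlx3 and Runx1 was not tested.

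Genes that work with these families were described from lists. Of 34 measured Polycomb and trithorax genes, which keep Hox clusters silent or active, 2 were higher and 6 lower, with a median log2 change of −0.41. Of all tested genes 17.7% were higher and 15.9% lower, with a median of −0.02. Cbx7, a Polycomb chromodomain protein, had 85.0, 54.4 and 106 normalized counts in knockout 1 to 3, against 304, 354 and 388 in controls 1 to 3. The groups were far apart, with a log2 change of −2.12 ± 0.27 (adjusted p = 0.00102). Mtf2 and Cbx6, also of Polycomb complexes, fell (−1.38 ± 0.23 and −2.03 ± 0.43), and Kdm6b, a demethylase that opposes them, rose (1.03 ± 0.22).

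Of 22 measured other homeobox factors and Hox cofactors, 3 were higher and 6 lower (17.7% and 15.9% of all tested genes were). Satb1, a chromatin organizer of the epidermis, had 427, 350.4 and 369 normalized counts in knockout 1 to 3, against 1018, 815 and 874 in controls 1 to 3. No library labelled knockout reached the controls, and the log2 change was −1.24 ± 0.18 (adjusted p = 0.00166). Zhx3 fell (−0.71 ± 0.17), and Cux2 and Tgif1 rose (1.91 ± 0.38 and 1.65 ± 0.40). Of 5 Sp genes, relatives of the Klf family, Sp2 and Sp1 rose (0.76 ± 0.19 and 0.65 ± 0.20) and 0 fell. Of 14 partners of Sox, Runx and Gata proteins, 2 were higher and 4 lower, among them the Gata cofactor Zfpm1 (−1.12 ± 0.25), Lmo1 (−2.27 ± 0.52), Tle4 (0.91 ± 0.24) and Tcf3 (−0.86 ± 0.25).

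Of 37 measured epidermal regulators outside the families, 10 were higher and 7 lower (17.7% and 15.9% of all tested genes were). Etv4, an effector of growth factor signals, had 362, 117 and 204 normalized counts in knockout 1 to 3, against 13.6, 7.97 and 8.99 in controls 1 to 3. Every library labelled knockout was far above every control, and the log2 change was 4.24 ± 0.43 (adjusted p = 3.98e-04). Hopx, Ehf and Prdm1 rose (2.28 ± 0.28, 3.49 ± 0.46 and 1.53 ± 0.25), and of the 7 that fell, Pou3f1, Pou2f3, Rxra, Rora and Cebpa changed by −2.59 ± 0.52, −2.11 ± 0.39, −1.20 ± 0.22, −1.12 ± 0.18 and −0.96 ± 0.29.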

How the data were processed

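The authors deposited a signal in normalized counts for 12894 Ensembl IDs in 6 libraries. Tools named per the submitters' processing notes are TopHat2 2.1.0 and Partek 9.0.20.0202, and the build is mm39. How values were normalized and how strands were assigned is not given in the sources used here. Low values were whole multiples of 1 step per library for 81.0 to 83.4% (within 0.02 of a step), so whole reads were not recovered and depth is an estimate. Symbols were matched for 12771 IDs, and 123 had none. The GRCm38 annotation gave symbols, chromosomes, gene order and overlaps, and upstream bases came from RefSeq tables of GRCm38.p6.

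Values above 1 in at least 3 libraries (12872 genes) were fitted as log2(value + 1) with limma 3.58.1 in R 4.3.3 (lmFit, eBayes with a mean-variance trend), with Benjamini-Hochberg adjustment over all tested genes at 0.05. Errors are moderated SE, and the fit was tested on simulated data. Titles carry separate animal numbers, and p-values measure the spread between these libraries. Adjacent numbers (216 and 217, 241 and 242, 250 and 251) correlated in their deviations by 0.37, 0.23 and 0.36, and other pairs by −0.28 to −0.07. The pairing therefore rests on the numbers in the titles and on these correlations, not on a stated litter. Deviations from a group mean cancel within the group, so positive values in adjacent pairs force negative values among the other pairs. A call passed with the animals paired where a fit with these pairs as a block passed it. Alternatives were other pseudocounts, filters, scalings and variance models, this block, knockout 1 alone, and leaving out each library.

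The members and lists were chosen with earlier results of these data known. The values of 1 factor are not reported here, though the counts hold it. Each factor past the threshold was named. Values per library were given for up to 4 factors of each family by smallest adjusted p and for its highest mean that did not pass. Those of other factors, of opposite-strand transcripts and of Xist and Ddx3y were added after their values were seen. So were the marker genes named singly and the falls named among epidermal regulators. From each list of partner genes up to 4 past the threshold were named by smallest adjusted p.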

Additional observations from a re-analysis of the deposited data

How the results depend on the processing

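All 26 factors past the threshold kept their direction in the 16 alternatives, and 12 kept the call in each of the 6 fits that left out 1 library. Leaving out 1 library gave 13 to 31 factors past the threshold, 4 to 11 higher and 9 to 20 lower, and 2644 to 4509 of all genes. Knockout 1 alone against the controls, where the lone library is assumed to vary like the others, gave 16 factors, 9 of them lower, and 2485 genes. With equal library totals 4 factors were higher and 23 lower, and 1440 and 3065 of all tested genes. With the replicate block of adjacent animal numbers 12 were higher, and 36 passed in all, against 26 without it. Of all tested genes 5781 passed with the block, against 4328 without it. The block lost none of the 26 and added the 10 factors whose values are given with the animals paired. The sign turned for factors that did not pass as reported. Those given here have the highest mean of their family among such factors. Other factors turned too, as the median of the Gata, Grhl and Runx genes went from 0.10 to −0.24 with equal library totals. Foxo3 was −0.10 with quantile normalization. Irx3 was −0.20 with equal library totals, −0.06 with quantile normalization, −0.56 with knockout 1 alone, and −0.31 to 0.52 with 1 library left out. Klf4 was −0.27, −0.90 and −0.18 in the same 3 settings, and −0.22 to 0.23 with 1 library left out. Sox7 was −0.35 to 0.11 with 1 library left out. The cause of these turns was not tested. Depth limits 11 factors that were at or under 3 estimated reads in some library, 10 of them in knockout 2. Groups of 3 are too small for a test of single outlying libraries.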
